A study of Homo sapiens with 24 samples.

Results

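The rows ATG10, SH3D19, CAND2 and KANK3 are 4 of the 61578 rows of each count table in an RNA sequencing study of HGC27 cells, a human gastric carcinoma line. They were chosen by name because each names a gene whose exons face exons of a cytosolic ribosomal protein gene on the other DNA strand: RPS23 faces ATG10, RPS3A faces SH3D19, RPL32 faces CAND2 and RPS28 faces KANK3. The library kit keeps strand, and where such libraries are counted with the other strand setting, a row holds reads from its partner instead of from the gene it names. All 4 rows passed the filter on low counts and are among the 12822 rows tested.

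The study compared cells carrying a guide against TMEM97, a sterol-binding membrane protein, with cells that do not, in ordinary and in lipid-poor serum. There were 8 groups of 3 libraries, each 1 line in 1 medium. SG12 and SG21 are the lines labelled TMEM97 knockout. SGCTRL is labelled as a wild-type control with a control guide, and parental cells are HGC27 with no guide named. Every line was grown for 3 days in high-glucose DMEM with either lipoprotein-deficient serum (LPDS) or fetal bovine serum (FBS). Each knockout label is represented by 1 line, and the labels do not say whether a line is a clone or a pool. The 3 libraries of a group are given as biological samples, with no word on what was kept separate, so p-values measure the spread between these libraries.

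Cytosolic ribosomal proteins assemble with ribosomal RNA in the nucleolus into the small and the large ribosomal subunit. Their mRNAs are among the most abundant of a growing cell, carry a pyrimidine tract at the 5′ end, and are regulated largely at translation, downstream of mTORC1. RPS23 lies at the decoding centre of the small subunit, RPS3A on the platform of the small subunit, RPS28 near its mRNA exit, and RPL32 in the large subunit. Of the genes that give the rows their names, ATG10 encodes an enzyme that conjugates ATG12 to ATG5 in autophagy, SH3D19 an SH3-domain adaptor protein, CAND2 a regulator of cullin ubiquitin ligases, and KANK3 an ankyrin-repeat protein of the KANK family.

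The stretches through which the first 2 rows can read ribosomal protein mRNA are shown because they bear on what these rows can measure. Coordinates are GRCh38, and exons and transcript sequences are those of GENCODE release 29. The exons of ATG10 and RPS23 share 374 bases at chr5:82276145-82276518, where ATG10 is on the plus strand and RPS23 on the minus strand. Of the shared bases, 232 are coding bases of RPS23, positions 165 to 396 of its coding sequence, or 54.1% of it. The exons of SH3D19 and RPS3A share 262 bases at chr4:151102871-151103132, with SH3D19 on the minus strand and RPS3A on the plus strand. Of these, 209 are coding bases of RPS3A, positions 355 to 563, or 26.4% of its coding sequence. Both sequences are given 5′ to 3′ as the ribosomal protein mRNA reads. Capitals mark the shared coding bases, and the 15 lower-case bases at each end are the flanking coding sequence.
RPS23: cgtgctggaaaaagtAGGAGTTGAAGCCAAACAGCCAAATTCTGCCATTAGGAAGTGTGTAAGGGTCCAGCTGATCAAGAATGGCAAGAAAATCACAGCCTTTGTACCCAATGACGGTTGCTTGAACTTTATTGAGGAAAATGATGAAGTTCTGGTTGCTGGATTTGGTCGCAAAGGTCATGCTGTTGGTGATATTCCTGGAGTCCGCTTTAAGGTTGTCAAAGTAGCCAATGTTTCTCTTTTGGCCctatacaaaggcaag
RPS3A: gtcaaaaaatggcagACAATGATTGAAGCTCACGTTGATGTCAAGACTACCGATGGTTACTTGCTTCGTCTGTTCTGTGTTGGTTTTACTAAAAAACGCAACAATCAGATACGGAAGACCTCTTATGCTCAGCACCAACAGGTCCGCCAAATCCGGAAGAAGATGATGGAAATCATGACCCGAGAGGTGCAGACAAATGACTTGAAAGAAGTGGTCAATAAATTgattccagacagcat
The RPS23 stretch spans 2 exons and has 44.0% G or C, and the RPS3A stretch lies in 1 exon and has 42.6%. The overlap reaches 5 of the 6 coding transcripts of RPS23 but none of the 6 coding transcripts of ATG10, where only 2 of 9 transcripts extend into it. Likewise it reaches 11 of the 12 coding transcripts of RPS3A and none of the 7 coding transcripts of SH3D19, of whose 13 transcripts 1 extends into it.

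For CAND2 and KANK3 the annotation gave another picture. CAND2 and RPL32 share 320 bases at chr3:12834485-12834804, none of them coding, and only 1 of the 7 coding transcripts of RPL32 reaches them, 1293 bases of genome past its stop codon. KANK3 and RPS28 share 365 bases in 2 segments, chr19:8322584-8322922 and chr19:8323315-8323340. These lie in the 3′ tail of the single coding transcript of RPS28, 512 bases past the stop codon, and hold no coding base. For both pairs the overlap also lies in 2 of the 4 coding transcripts of the gene that names the row. The CAND2 and KANK3 rows therefore share no coding exon with RPL32 or RPS28. For KANK3 the shared bases are part of the 3′ untranslated region of an RPS28 mRNA, so reads from that mRNA could still fall there. Which transcripts these 2 rows count was not tested, and they are called by their row names from here on.

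The counts at each locus differed in the same way. The row named RPS23 held 0.167% as many reads as the ATG10 row, and the row named RPS3A held 0.251% as many as the SH3D19 row. In contrast, the row named RPL32 held 78.3% as many reads as the CAND2 row, and the row named RPS28 held 442% as many as the KANK3 row. Counts were scaled to 1 M reads on genes in each library (CPM). A mean of 41.6 CPM for CAND2 lay below the 99th percentile, 50.7 CPM, of the 13084 protein-coding rows that face no gene on the other strand, and 63.2 CPM for KANK3 lay just above it. CPM is not divided by length, so no order of gene levels is read from these means.

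Repeats of the sequences bear on the counts, since reads that aligned to more than 1 place were not counted. In the ATG10 and RPS23 overlap, 121 of 183 windows of 50 bases (66.1%) also occur in another annotated gene. In the SH3D19 and RPS3A overlap this held for 152 of 160 windows (95%), and in the CAND2 and KANK3 overlaps for none of 271 and none of 290. Rows named for pseudogenes summed to 2.0 CPM over 10 rows for RPS23, 6.54 CPM over 53 rows for RPS3A, 12.6 CPM over 36 rows for RPL32 and 16.5 CPM over 5 rows for RPS28. The part of pseudogene copies in the ATG10 and SH3D19 values was not tested.

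Uniquely aligned reads numbered 44.1 to 102 M a library, 94.3% to 94.6% of them on no gene, which left 2.4 to 5.54 M reads on genes. Reads aligned more than once were 10.4% to 19.6% of aligned reads. The share of ambiguous reads, those that fit more than 1 gene, split the libraries: it was 2.10% to 2.24% of reads on genes or ambiguous in 8 libraries and 2.58% to 3.15% in the other 16, with a cut of 2.4% between. The 8 libraries of lower share are all 6 SGCTRL libraries and replicates 2 and 3 of SG21 in LPDS. Line and split therefore cannot be told apart between SGCTRL and SG12, between SGCTRL and parental cells, or between SG21 and SGCTRL in FBS. The row TMEM97 held 50.1 to 82.8 CPM in the knockout lines and 61.2 to 100 CPM in the other lines. The row IFT20, which faces TMEM97 on the other strand, held 48.7 to 208 CPM in SG12, 73.8 to 137 CPM in SG21, 118 to 166 CPM in SGCTRL and 88.8 to 170 CPM in parental libraries, and neither row separated the knockout lines from the others. The epithelial label could not be checked either. EPCAM, CDH1, KRT8, KRT18 and KRT19 had means of 0.0658, 0.0846, 0.335, 0.233 and 0.0114 CPM under their own names. CLDN4, also on the epithelial list, went the other way with 39.4 CPM. Rows read on the other strand do not settle whether these genes are expressed.

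The ATG10 row, whose gene faces coding exons of RPS23, took 0.651% to 1.26% of all reads on genes, 16639 to 42985 reads a library. In SG12 it held 10617, 10299.7 and 10273 CPM in LPDS, against 11789, 12240.4 and 11471 CPM in FBS. In SG21 it held 10556, 7518 and 6514 CPM in LPDS, against 9954, 9207 and 9933 CPM in FBS. The first SG21 library in LPDS was above all 3 FBS libraries of that line, and the other 2 were below them. In SGCTRL the row held 7687, 7291 and 7399 CPM in LPDS, against 7448, 6992 and 7275 CPM in FBS. In parental cells it held 10713, 9998 and 9696 CPM in LPDS, against 11025, 12639 and 9839 CPM in FBS. All 6 SGCTRL libraries lay below every SG12, parental and SG21 FBS library, and in SG12 the LPDS libraries lay below the FBS libraries. In RNA from whole cultures, fewer expressing cells and less RNA per cell cannot be told apart.

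**Figure D1:**
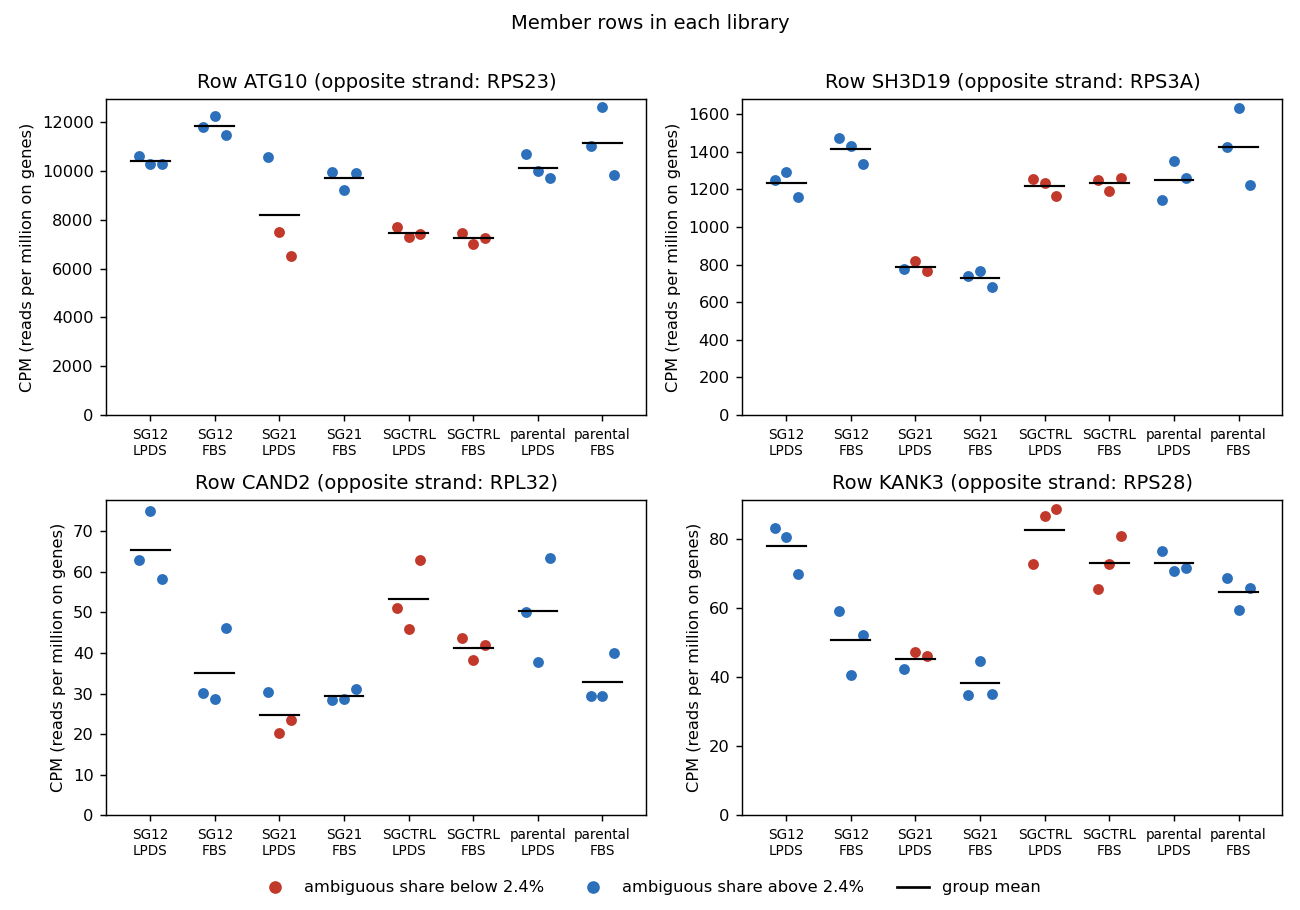
CPM of each member row in the 24 libraries (points, 3 per group) with group means (bars), by line and medium; red points are libraries with an ambiguous share below 2.4%. The ATG10 row is at 6514 to 7687 CPM in all 8 red libraries, and the SH3D19 row is at 678 to 819 CPM in all 6 SG21 libraries.

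In order of group means, the ATG10 row ran from 11834 ± 386 CPM (SD, n = 3) in SG12 in FBS over 11168 ± 1405 in parental FBS, 10397 ± 191 in SG12 in LPDS, 10136 ± 522 in parental LPDS, 9698 ± 425 in SG21 in FBS and 8196 ± 2105 in SG21 in LPDS to 7459 ± 205 in SGCTRL in LPDS and 7238 ± 230 in SGCTRL in FBS. No neighbouring groups in that order were separate in their ranges. The SD of SG21 in LPDS, the only group with libraries on both sides of the ambiguous-share cut, was the widest of the 8.

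By ambiguous share, the ATG10 row held 6514 to 7687 CPM in the 8 libraries below the cut, with a median of 7345, and 9207 to 12639 CPM in the other 16, with a median of 10428. The sets did not overlap, and the ratio of medians was 0.704. Of the 12822 tested rows, 40 (0.312%) lay lower in all 8 libraries than in any of the other 16, and 8 (0.0624%) lay higher. Within SG21 in LPDS, the mean of replicates 2 and 3, below the cut, was 0.665 times replicate 1, above it. A ratio this low or lower was found in 1839 of 12640 tested rows with reads in replicate 1 (14.5%), and in 134 of the 2966 rows with a mean CPM at least that of CAND2 (4.52%). It was not particular to ATG10 among rows over ribosomal protein genes: LRR1 over RPS29, at 0.642, and ENSG00000265496 over RPL17, at 0.649, had lower ratios, though neither separated by ambiguous share. Their ratios rest on far fewer reads, with means of 8.39 CPM for LRR1 and 89.9 CPM for ENSG00000265496, against 9516 CPM for ATG10. Neither row shares a coding base with the gene it faces.

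The other members did not separate by ambiguous share. The SH3D19 row held 768 to 1260 CPM below the cut and 678 to 1632 CPM above it, a ratio of medians of 0.966. The ratio was 1.24 for CAND2 and 1.16 for KANK3, with overlapping ranges. In SG21 in LPDS the mean of replicates 2 and 3 was 1.02 times replicate 1 for SH3D19, 1.11 times for KANK3 and 0.718 times for CAND2. The libraries fall into separate clusters of ambiguous share, so no correlation with it is given.

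**Figure D2:**
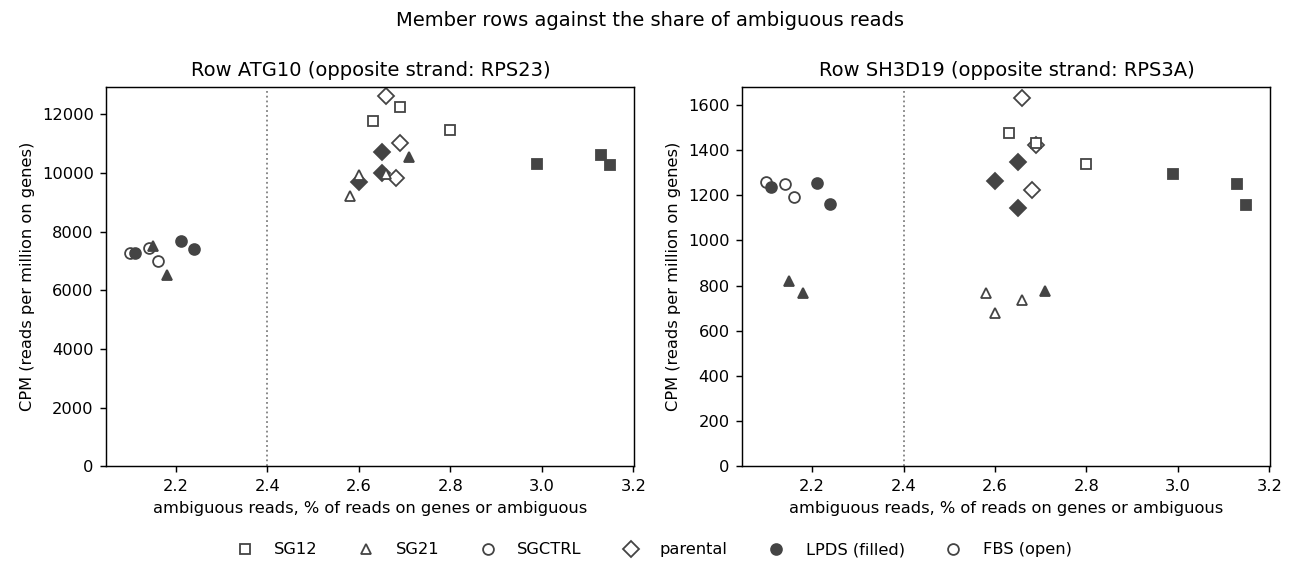
CPM of the ATG10 and SH3D19 rows (vertical) against ambiguous reads as a percentage of reads on genes or ambiguous (horizontal), 1 point per library, marked by line and medium; the dotted line is the cut at 2.4%. The ATG10 row is lower in all 8 libraries left of the line (median 7345 CPM) than in the 16 right of it (median 10428 CPM), whereas for SH3D19 the SG21 libraries are low on both sides.

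The SH3D19 row, whose gene faces coding exons of RPS3A, held 1961 to 6446 reads a library. In SG12 it held 1250.15, 1294 and 1158 CPM in LPDS, against 1475, 1431 and 1336 CPM in FBS. In SG21 it held 776.5, 819 and 768 CPM in LPDS, against 739, 768 and 678 CPM in FBS. The SG21 values were close to each other in both media, on both sides of the ambiguous-share cut. In SGCTRL it held 1254, 1236 and 1163 CPM in LPDS, against 1249, 1192 and 1260 CPM in FBS. In parental cells it held 1141, 1349 and 1262 CPM in LPDS, against 1423, 1632 and 1222 CPM in FBS. Every SG21 library was below every library of the other 3 lines, whose lowest value was 1141 CPM. The SG12 LPDS libraries were below those in FBS, and the media overlapped in the other lines.

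In order of group means, the SH3D19 row held 1426 ± 205 CPM (SD, n = 3) in parental FBS, 1414 ± 71.3 in SG12 in FBS, 1251 ± 104 in parental LPDS, 1234 ± 69.4 in SG12 in LPDS, 1234 ± 36.6 in SGCTRL in FBS and 1218 ± 48.4 in SGCTRL in LPDS. SG21 came last, with 788 ± 27.3 CPM in LPDS and 728 ± 45.7 CPM in FBS. The step to the SG21 groups was the only gap between neighbours in this order, and the 6 groups above it overlapped from each to the next.

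The CAND2 row rested on fewer reads, 60 to 349 a library. In SG12 it held 63.0, 75.1 and 58.1 CPM in LPDS, against 30.2, 28.8 and 46.2 CPM in FBS. In SG21 it held 30.5, 20.3 and 23.5 CPM in LPDS, against 28.3, 28.6 and 31.2 CPM in FBS. The LPDS libraries were all above the FBS libraries in SG12, while in SG21 the media overlapped. In SGCTRL it held 51.2, 46.0 and 63.0 CPM in LPDS, against 43.8, 38.2 and 41.9 CPM in FBS. In parental cells it held 50.1, 37.8 and 63.5 CPM in LPDS, against 29.4, 29.4 and 40.0 CPM in FBS. SGCTRL in LPDS lay above SGCTRL in FBS in every library, and the parental media overlapped. Group means ran from 65.4 ± 8.71 CPM in SG12 in LPDS to 24.7 ± 5.23 CPM in SG21 in LPDS (SD, n = 3 each), and each group overlapped the next in that order.

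The KANK3 row held 105 to 492 reads a library. In SG12 it held 83.3, 80.6 and 69.9 CPM in LPDS, against 59.1, 40.8 and 52.1 CPM in FBS. In SG21 it held 42.2, 47.3 and 46.2 CPM in LPDS, against 34.99, 44.7 and 35.01 CPM in FBS. SG12 was higher in LPDS in every library, and SG21 was low in both media with overlapping ranges. In SGCTRL it held 72.7, 86.6 and 88.7 CPM in LPDS, against 65.5, 72.8 and 80.9 CPM in FBS. In parental cells it held 76.5, 70.9 and 71.7 CPM in LPDS, against 68.7, 59.4 and 65.9 CPM in FBS. The SGCTRL media overlapped, and parental LPDS lay above parental FBS in every library. Ordered by group means, SGCTRL in LPDS was highest at 82.7 ± 8.75 CPM and SG21 in FBS lowest at 38.2 ± 5.62 CPM (SD, n = 3 each). Parental LPDS did not overlap parental FBS, the next in that order, and SG12 in FBS, next below, did not overlap parental FBS, while the other neighbours overlapped.

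Differences were tested with edgeR's quasi-likelihood F test over all 24 libraries, with Benjamini-Hochberg adjustment over the 12822 rows within a comparison and a threshold of 0.05. Fold changes are log2, first-named group over second, with an approximate standard error (SE). Counts of passing rows are given beside the percentage of all tested rows that passed.

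The first question was whether lipid-poor serum changed the rows. In SG12, 2 of the 4 rows passed, both higher in LPDS, where 22.5% of all tested rows passed. CAND2 was higher by a log2 fold change of 0.91 (SE 0.20, edgeR adjusted p = 0.00088), with all 3 LPDS libraries above all 3 FBS libraries. KANK3 was higher by 0.62 (SE 0.15, edgeR adjusted p = 0.0023). Without replicate 2 of SG12 in FBS, the lowest KANK3 library of that group, KANK3 no longer passed (log2 fold change 0.42, edgeR adjusted p = 0.0763). With ambiguous share as a covariate, CAND2 no longer passed (0.58, edgeR adjusted p = 0.154) and ATG10 passed as lower in LPDS (-0.54, edgeR adjusted p = 0.00148). Within SG12 that share was 2.63% to 2.8% in FBS and 2.99% to 3.15% in LPDS. Medium and share therefore cannot be told apart in SG12, and no conclusion is drawn from this fit.

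In parental cells none of the 4 rows passed, where 4.67% of all rows did. CAND2 came nearest, with a log2 fold change of 0.63 (SE 0.20, edgeR adjusted p = 0.0595), and it passed without parental FBS replicate 3 (0.77, edgeR adjusted p = 0.0459) or parental LPDS replicate 2 (0.81, edgeR adjusted p = 0.0211). None of the 4 rows passed in SGCTRL, where 2.25% of all rows did, nor in SG21, where 3.76% did. For ATG10 in SG21 the log2 fold change was -0.27 (SE 0.11, edgeR adjusted p = 0.183). Without replicate 1 of SG21 in LPDS, the library above the ambiguous-share cut, it was -0.50 (edgeR adjusted p = 0.000152), and without replicate 3 of that group it was -0.12 (edgeR adjusted p = 0.656). With no count filter it passed at -0.30 (edgeR adjusted p = 0.015).

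The LPDS responses of the lines were then compared with each other. None of the 4 rows passed in any of the 4 differences of response. Of all rows, 10.4% passed for SG12 minus SGCTRL, 8.04% for SG12 minus parental and 0.835% for SG21 minus parental. For SG21 minus SGCTRL, 0.0% passed in edgeR, with 1070 rows at an unadjusted p under 0.05 and 40 rows called by DESeq2. For CAND2 the SG21 minus parental difference was -0.92 (SE 0.29, edgeR adjusted p = 0.115), and it passed without SG21 LPDS replicate 1 (-1.10, edgeR adjusted p = 0.0345) or parental LPDS replicate 2 (-1.11, edgeR adjusted p = 0.0449). For ATG10 the SG21 minus SGCTRL difference was -0.32 (SE 0.15, edgeR adjusted p = 0.577), against -0.55 (edgeR adjusted p = 0.00642) without SG21 LPDS replicate 1.

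The next comparison set each knockout line against SGCTRL, whose libraries are shared by both. In FBS, SG12 differed in 2 of 4 rows (25.2% of all rows): ATG10 was higher by 0.73 (SE 0.11, edgeR adjusted p = 2.95e-06) and KANK3 was lower, with a log2 fold change of -0.51 (SE 0.15, edgeR adjusted p = 0.00999). In LPDS, SG12 differed in 1 of 4 rows (10.9% of all rows), with ATG10 higher by 0.49 (SE 0.11, edgeR adjusted p = 0.00205). SG12 and SGCTRL lie on opposite sides of the ambiguous-share cut. With a term for the split the ATG10 values were 0.09 (edgeR adjusted p = 0.79) in FBS and -0.15 (edgeR adjusted p = 0.735) in LPDS. The KANK3 call in FBS was lost without SG12 replicate 2 (-0.30, edgeR adjusted p = 0.217), SG12 replicate 3 (-0.44, edgeR adjusted p = 0.0527), SGCTRL replicate 2 (-0.44, edgeR adjusted p = 0.058) or SGCTRL replicate 3 (-0.35, edgeR adjusted p = 0.154). Each such fit also keeps other rows and scales anew. SG12 replicate 3 (52.1 CPM) and SGCTRL replicate 2 (72.8 CPM) lay near their group means of 50.6 and 73.1 CPM. Those 2 losses are therefore not read as due to the KANK3 value of the library left out.

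SG21 differed from SGCTRL in 3 of 4 rows in FBS (14.1% of all rows). SH3D19, over RPS3A, was lower with a log2 fold change of -0.76 (SE 0.10, edgeR adjusted p = 3.71e-07), 0.588 times the SGCTRL level. KANK3 was lower, at -0.94 (SE 0.15, edgeR adjusted p = 2.54e-05), and ATG10 was higher, at 0.42 (SE 0.11, edgeR adjusted p = 0.00686). In LPDS, SG21 also differed in 3 of 4 rows (10.7% of all rows), all of them lower: CAND2 at -1.16 (SE 0.20, edgeR adjusted p = 0.00012), KANK3 at -0.91 (SE 0.15, edgeR adjusted p = 4.51e-05) and SH3D19 at -0.68 (SE 0.10, edgeR adjusted p = 4.31e-06). ATG10 in LPDS did not pass, at 0.10 (95% interval -0.12 to 0.31). With the first SG21 LPDS library alone, which assumes that this library varies like the other groups, ATG10 was 0.50 higher (edgeR adjusted p = 0.000643) and CAND2 no longer passed (-0.82, edgeR adjusted p = 0.0907).

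The lower SH3D19 level of SG21 kept its call in fits with a term for the split. That term is estimated from SG21 in LPDS alone, replicate 1 against replicates 2 and 3, because no other group lies on both sides of the cut, and in FBS the line and the split cannot be told apart for SG21 against SGCTRL. Against SGCTRL SH3D19 was -0.79 in FBS (edgeR adjusted p = 0.00804) and -0.68 in LPDS (edgeR adjusted p = 2.13e-05) with a term for the split. With replicate 1 of SG21 in LPDS alone it was -0.65 (edgeR adjusted p = 0.00106), and with replicates 2 and 3 alone -0.67 (edgeR adjusted p = 1.91e-05). KANK3 in FBS did not pass with the split term, where the fold change stayed near the -0.94 above while its error grew (-0.84, SE 0.28 beside 0.15, edgeR adjusted p = 0.167), nor with ambiguous share as a covariate (-0.78, edgeR adjusted p = 0.0696). ATG10 in FBS turned round with the split term (-0.22, edgeR adjusted p = 0.592).

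**Figure D3:**
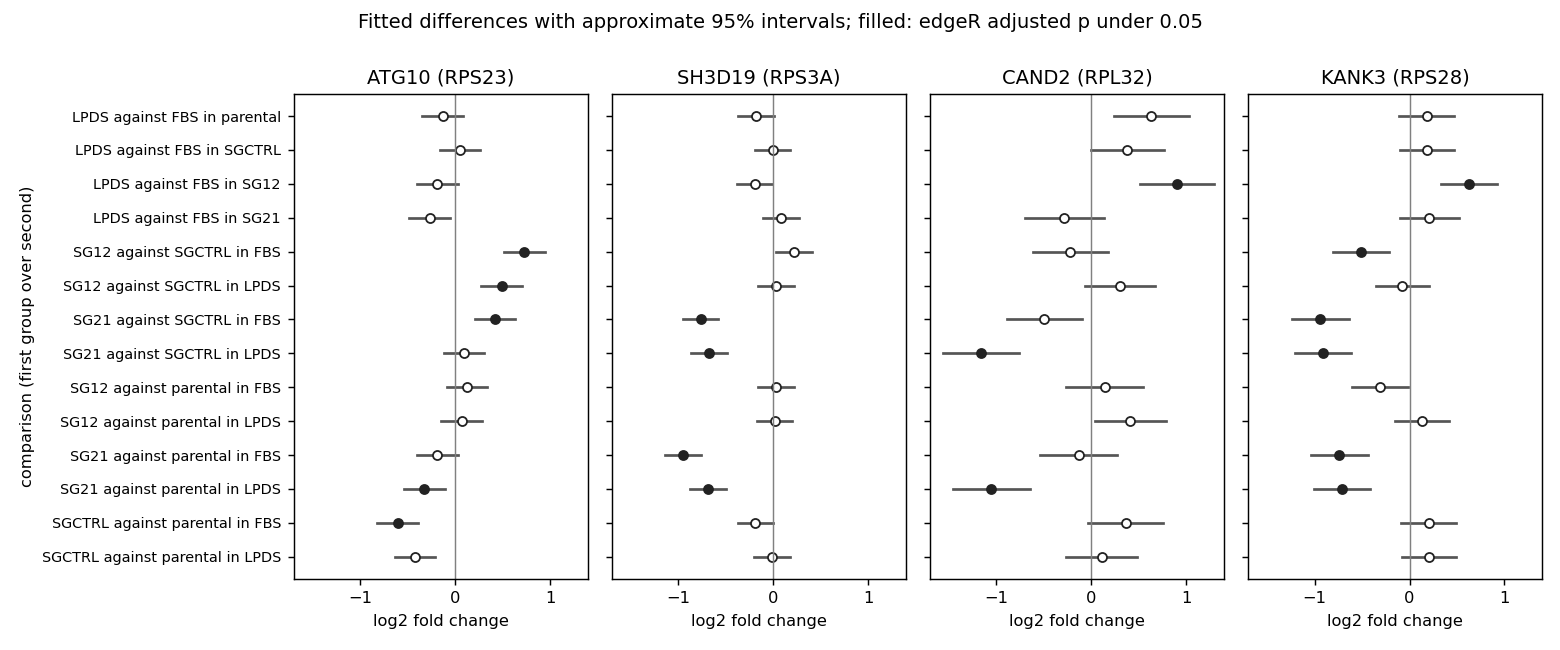
Log2 fold changes of the 4 member rows (horizontal, first-named group over second) in the 14 comparisons between groups (vertical), with approximate 95% intervals; filled points have an edgeR adjusted p under 0.05. SH3D19 and KANK3 lie left of 0 in all 4 comparisons of SG21 with another line, between -0.68 and -0.95, while ATG10 is right of 0 in the 3 passing comparisons of a knockout line with SGCTRL.

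Parental cells give a reference on the same side of the cut as SG12 and as SG21 in FBS. SG12 differed from parental cells in none of the 4 rows in FBS, where 26.5% of all rows passed, and in none in LPDS, where 9.69% did. For ATG10 the log2 fold changes were 0.12 (95% interval -0.09 to 0.34) in FBS and 0.07 (-0.14 to 0.28) in LPDS. Those of SH3D19 were 0.03 (-0.16 to 0.21) and 0.01 (-0.17 to 0.20). The median of all rows in the FBS comparison was -0.09, and -0.15 with library sizes from all uniquely aligned reads, so these values are read relative to a shifted centre.

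SG21 differed from parental cells in 2 of 4 rows in FBS (24.1% of all rows). SH3D19 was lower with a log2 fold change of -0.95 (SE 0.10, edgeR adjusted p = 3.86e-09), 0.516 times the parental level. KANK3 was lower at -0.74 (SE 0.15, edgeR adjusted p = 0.000467). In LPDS all 4 rows were lower in SG21 (11.3% of all rows passed): CAND2 at -1.05 (SE 0.21, edgeR adjusted p = 0.000461), KANK3 at -0.71 (SE 0.15, edgeR adjusted p = 0.00121), SH3D19 at -0.69 (SE 0.10, edgeR adjusted p = 3.25e-06) and ATG10 at -0.32 (SE 0.11, edgeR adjusted p = 0.048). The ATG10 groups overlapped. Its call was lost without SG21 replicate 2 (-0.32, edgeR adjusted p = 0.0861), SG21 replicate 3 (-0.18, edgeR adjusted p = 0.273), parental replicate 1 (-0.27, edgeR adjusted p = 0.187) or parental replicate 2 (-0.34, edgeR adjusted p = 0.088), and with replicate 1 of SG21 alone the value was 0.07 (edgeR adjusted p = 0.777). CAND2 no longer passed with the split term (-0.71, edgeR adjusted p = 0.155) or with SG21 replicate 1 alone (-0.71, edgeR adjusted p = 0.174).

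SGCTRL against parental cells compares lines that both carry intact TMEM97 by their labels. In FBS 1 of 4 rows passed (18.2% of all rows): ATG10 was lower in SGCTRL, with a log2 fold change of -0.61 (SE 0.11, edgeR adjusted p = 0.000186), 0.657 times the parental level. With a term for the split the value was 0.03 (edgeR adjusted p = 0.936). In LPDS none of the 4 rows passed (0.842% of all rows), and ATG10 stood at -0.42 (SE 0.11, edgeR adjusted p = 0.0522) with all SGCTRL libraries below all parental ones. It passed under DESeq2 (-0.43, adjusted p = 0.024), with library totals as the only scaling (-0.44, edgeR adjusted p = 0.0142), without SGCTRL replicate 1 (-0.50, edgeR adjusted p = 0.0431) and without parental replicate 3 (-0.51, edgeR adjusted p = 0.0205). SH3D19, CAND2 and KANK3 passed in neither medium.

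Other rows that face ribosomal protein genes were described to place the members. Of 79 cytosolic ribosomal protein genes, 19 have at least 1 row on the other strand whose main overlap they are, and 12 such rows besides the members had a mean above 6.02 CPM, the 90th percentile of rows with no opposite gene. They were taken by shared exon bases, with no requirement on coding sequence. Of the 12, 7 lay above the 99th percentile of 50.7 CPM and 5 at or below it, and 3, all of them above it, share coding bases with any annotated transcript of the ribosomal protein gene: RPL30-AS1 (178 bases), DNASE1L1 over RPL10 (189) and ENSG00000280195 over RPL10 (23). What the rows without such bases count was not tested. The 12 include RPL30-AS1 over RPL30 (3917 CPM), NKIRAS1 over RPL15 (703 CPM) and ENSG00000280195 over RPL10 (573 CPM), all proteins of the large subunit. None of these 12 rows separated by ambiguous share. RPL30-AS1 came nearest to separate ranges, at 3061 to 3523 CPM in the 8 libraries below the cut and 3329 to 5004 CPM in the others, a ratio of medians of 0.816. ENSG00000265496 had a lower ratio of medians, 0.783. The median of that ratio was 1.01 over the 12 rows and 1.04 over the 2966 more abundant rows.

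**Figure D4:**
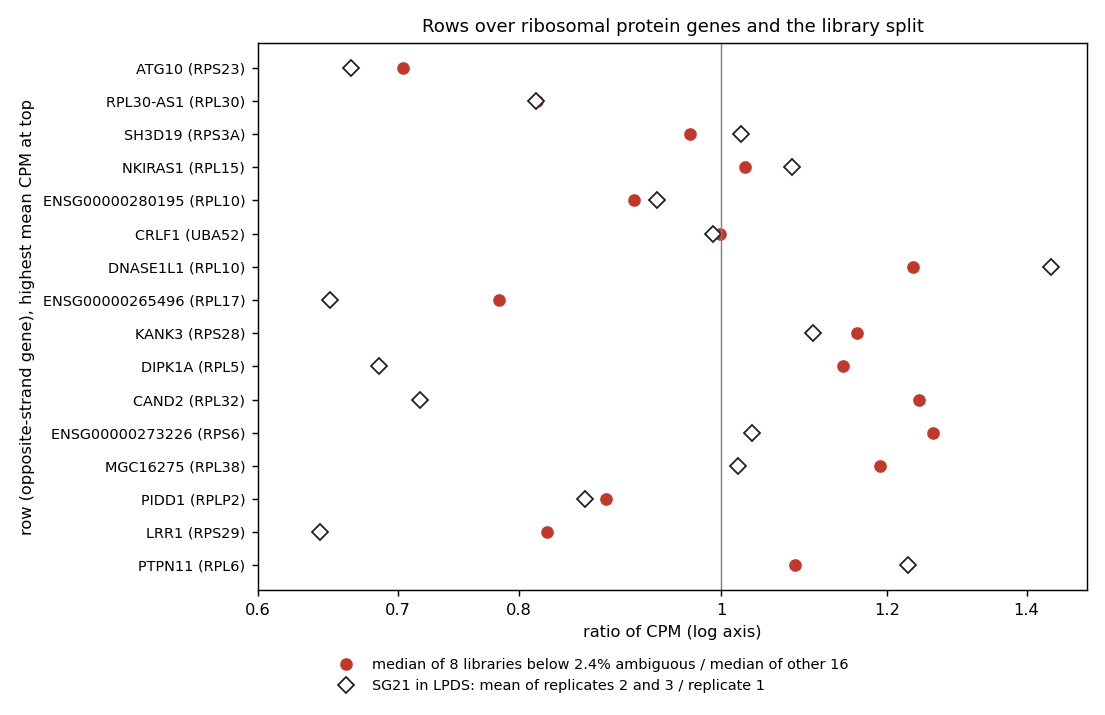
For each of 16 rows over a ribosomal protein gene (vertical, opposite-strand gene in brackets), the ratio of median CPM below the ambiguous-share cut to that above it (filled circles) and, in SG21 in LPDS, of replicates 2 and 3 to replicate 1 (open diamonds), on a log axis. ATG10 over RPS23 has ratios of 0.704 and 0.665, RPL30-AS1 over RPL30 of 0.816 and 0.815, and SH3D19 over RPS3A of 0.966 and 1.02; the diamonds of LRR1 (0.642) and ENSG00000265496 (0.649) lie left of that of ATG10.

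In SG21 against parental cells in LPDS, 6 of the 12 other rows were lower and 1 higher (58.3%, against 11.3% of all rows), with a median log2 fold change of -0.39 against 0.01 for all rows. The lower ones include the row over RPL10 (ENSG00000280195, -0.50, SE 0.10, edgeR adjusted p = 0.000304) and the row over RPL17 (ENSG00000265496, -0.84, SE 0.15, edgeR adjusted p = 0.000143). The row over RPL17 lies on chromosome 18, whose 178 tested rows had a median of -0.33 in this comparison. Whether its place bears on its value was not tested. Of the rows named here, only ENSG00000280195 shares coding bases with the ribosomal protein gene it faces. NKIRAS1 over RPL15 was the higher one (0.35, SE 0.10, edgeR adjusted p = 0.0213). Against SGCTRL in LPDS, 5 of the 12 were lower and none higher (41.7%, against 10.7%). In FBS, 3 of the 12 were lower and none higher against each of SGCTRL (25.0%, against 14.1%) and parental cells (25.0%, against 24.1%). The comparisons of SG21 in LPDS share its 3 libraries, and these differed among themselves: the row over RPL17 held 44.8 and 45.4 CPM in replicates 2 and 3, against 69.4 CPM in replicate 1, and DIPK1A over RPL5 held 34.3 and 37.2 CPM, against 52.2 CPM. With replicate 1 alone, none of the 12 passed against parental cells (3.96% of all rows) or against SGCTRL (5.47%), with medians of -0.31 and -0.29. With replicates 2 and 3 alone, 6 were lower and 1 higher against parental cells (9.94% of all rows), with a median of -0.55, and 5 were lower against SGCTRL (8.78%). With the split term none passed against parental cells in LPDS (5.09% of all rows) or against SGCTRL in FBS (1.17%). In that fit 5 were still lower against SGCTRL in LPDS (9.31%) and 3 against parental cells in FBS (25.5%).

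In SG12 the other rows over ribosomal protein genes moved in both directions. Of those named here, only RPL30-AS1 shares coding bases with the gene it faces. Against SGCTRL in FBS, 3 of 12 were higher and 1 lower (33.3%, against 25.2% of all rows), among them NKIRAS1 (0.83, SE 0.10, edgeR adjusted p = 1.1e-07) and RPL30-AS1 (0.54, SE 0.09, edgeR adjusted p = 2.45e-05). With the split term 1 of the 12 passed there, where 6.11% of all rows did. In each of the other comparisons of SG12 with another line, 1 of 12 was higher and none lower (8.33%), against 10.9% of all rows for SGCTRL in LPDS, 26.5% for parental cells in FBS and 9.69% for parental cells in LPDS. In LPDS against FBS in SG12, 2 were higher and 2 lower (33.3%, against 22.5%), with NKIRAS1 lower at -0.79 (SE 0.10, edgeR adjusted p = 4.91e-07) and ENSG00000273226, a row of 25.6 CPM that shares no coding base with the RPS6 it faces, higher at 0.97 (SE 0.22, edgeR adjusted p = 0.00113). In SGCTRL against parental cells, RPL30-AS1 was the 1 row of 12 to pass in each medium, at -0.39 (SE 0.09, edgeR adjusted p = 0.00286) in FBS (8.33%, against 18.2% of all rows) and -0.40 (SE 0.09, edgeR adjusted p = 0.0218) in LPDS (8.33%, against 0.842%).

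Lists of neighbouring pathways gave few readable rows. For translation factors and other mRNAs with a 5′ pyrimidine tract, 3 rows could be used. In SG21 against parental cells in LPDS 2 of these 3 were lower (66.7%, against 11.3% of all rows). ENSG00000263826 over EIF4A2, an RNA helicase of translation initiation, was at -0.84 (SE 0.10, edgeR adjusted p = 7.95e-08), and ENSG00000273149 over TPT1, a growth-related protein, at -0.40 (SE 0.08, edgeR adjusted p = 0.000607). For ribosome biogenesis, 1 of 6 rows was higher in that comparison and none lower (16.7%, against 11.3% of all rows). Of these, ARL10 over NOP16, a nucleolar protein, was lower in all 8 libraries below the cut, at 67.5 to 122 CPM, than in the other 16, at 125 to 304 CPM. For mitochondrial ribosomal proteins, which serve the separate ribosome of mitochondria, 3 of 22 rows were higher and 2 lower (22.7%, against 11.3% of all rows). The 2 lower rows, SEMA4G and TWNK, both face MRPL43, so they stand for 1 gene. They start at 100969518 and 100987367 of chromosome 10, within the stretch given under Other observations.

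Over the 8 group means of log2 CPM, the rows with the pattern most like each member were found among 4822 rows of average log2 CPM of at least 4. For ATG10 the highest Pearson r was 0.969, with TMEM8B, and for SH3D19 it was 0.99, with TRIM8. It was 0.979 for CAND2, with MFSD13A, and 0.984 for KANK3, with MTREX. These are descriptions over 8 means from 24 libraries. DIPK1A over RPL5, a large-subunit protein that binds 5S ribosomal RNA, was the 1 ribosomal protein row among the 20 like rows, with r = 0.955 to CAND2.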

How the data were processed

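Total RNA (100 ng) was sequenced with a stranded kit after ribosomal RNA depletion, per the labels' protocols. Per the submitters' processing notes, bcl2fastq and STAR were used with hg38. How reads were assigned to genes (program, strand option, annotation release) is not given in the sources used here. The authors deposited raw read counts per gene name, whole numbers, used unchanged; the 5 closing entries for uncounted reads stayed out of library sizes. Rows were matched by name to GENCODE release 29, and a row's source is the opposite-strand gene with at least 50 shared exon bases and 80% of such overlap. CPM scales each library to 1 M reads on genes. Tests used edgeR 4.0.16 in R 4.3.3 (quasi-likelihood F test, all 24 libraries, a mean per group, TMM, filterByExpr, which kept 12822 rows, Benjamini-Hochberg within each of 18 comparisons). The SE was back-calculated from the fold change and F, and intervals are 1.96 SE to each side. DESeq2 1.42.0 was an alternative. On simulated counts, the edgeR test recovered 49.5% of 200 rows of all levels changed 2-fold, and 2.94% of its calls were false. The simulated spread was below that fitted to the data. A row that did not pass may therefore still differ. The members, the gene lists and the ambiguous-share cut were chosen with earlier results of these data known. Text names the 4 members, rows over ribosomal protein genes, up to 4 passing list members per comparison, and the rows most like each member. ARL10 was named after its values were seen. Intervals cover the spread between libraries, and read counts limit CAND2 and KANK3.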

Additional observations from a re-analysis of the deposited data

How the results depend on the processing

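Alternatives were other scalings (DESeq2 size factors, library totals, all uniquely aligned reads), DESeq2, 2 other count filters, the compared groups alone, a replicate block and a term for the library split. Ambiguous share as a covariate, and SG21 in LPDS with replicate 1 alone or replicates 2 and 3 alone, were chosen after seeing the data. Of 760 member values under these, 717 kept direction and side of the threshold, 22 newly passed, 14 no longer passed and 7 changed sign; 70 further sign changes, where neither value passed, are counted as kept. The sign changes were in ATG10. With the split term it stood at -0.15 in SG12 against SGCTRL in LPDS, -0.22 in SG21 against SGCTRL in FBS, 0.0695 in SG21 against parental cells in LPDS and 0.0333 in SGCTRL against parental cells in FBS. With the covariate it stood at -0.34 in SG12 against SGCTRL in LPDS and -0.0198 in SG21 against SGCTRL in FBS, and with SG21 replicate 1 alone at 0.0713 against parental cells in LPDS. The cause was not tested.

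Counts of the 4 members that passed changed as follows. With the split term and with the covariate alike, they were 0 for SG12 against SGCTRL in FBS (2 as reported), 0 for the same in LPDS (1), 1 for SG21 against SGCTRL in FBS (3), 0 for SGCTRL against parental cells in FBS (1) and 1 for LPDS against FBS in parental cells (0). SG21 against parental cells in LPDS gave 2 with the split term and 2 with replicate 1 alone (4). With replicates 2 and 3 alone, SG21 gave 1 for LPDS against FBS (0) and 1 for each of its response differences (0). SG12 minus SGCTRL in response gave 1 with the covariate and 1 with the compared groups alone (0). With the compared groups alone, CAND2 also passed for SG21 against SGCTRL in FBS, which gave 4 (3). SH3D19 likewise passed for SG12 against SGCTRL in FBS, which gave 3 (2). The ATG10 call for SG21 against parental cells in LPDS was also lost under DESeq2, with the compared groups alone and with the covariate. SGCTRL against parental cells in LPDS gave 1 under the 3 scalings, DESeq2, both filters, the compared groups alone and the replicate block (0). Without a count filter, LPDS against FBS gave 1 in parental cells and 1 in SG21 (0 each). The labels' replicate numbers did not pair the libraries, since same-numbered libraries deviated together by over 0.1 in 5 of 42 pairs and in no comparison throughout. The replicate block also gave 1 for LPDS against FBS in parental cells, and it changed no other count of members.

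Leaving out each library in turn, the count ranged from 0 to 1 for LPDS against FBS in parental cells and in SG21, 1 to 3 in SG12, 1 to 3 for SG12 against SGCTRL in FBS, 3 to 4 for SG21 against parental cells in LPDS, 1 to 2 and 0 to 1 for SGCTRL against parental cells in FBS and LPDS, and 0 to 1 for both SG21 response differences. The other 9 comparisons kept their counts. These fits also keep other rows and scale anew, so ATG10 in SG12 against SGCTRL in FBS ranged from 0.78 to 0.84, beside 0.73. Over all rows, the split term left 784 calls of 3234 for SG12 and 150 of 1810 for SG21 against SGCTRL in FBS, and 153 of 2338 for SGCTRL against parental cells in FBS; the covariate left 911, 262 and 356. In LPDS these terms left 181 and 67 of 1402 for SG12 against SGCTRL, and the covariate left 321 of 1243 for SG12 against parental cells. For SG21 in LPDS, replicate 1 alone left 840 of 1370 against SGCTRL, and 608 of 1450 against parental cells (653 with the split term). LPDS against FBS gave 223 beside 599 in parental cells and 654 beside 289 in SGCTRL with the compared groups alone, 1584 beside 2882 in SG12 with the covariate, and 70 to 827 beside 482 in SG21. SGCTRL against parental cells in LPDS gave 0 to 314 beside 108, and the SG21 response differences 0 to 241 beside 0 (SGCTRL) and 6 to 382 beside 107 (parental). With 1 library left out, calls over all rows moved by over 1.5 times for LPDS against FBS in parental cells (159 to 877 beside 599), SGCTRL (121 to 180 beside 289) and SG21 (214 to 827 beside 482), SG12 against SGCTRL in LPDS (890 to 1120 beside 1402), SG12 against parental cells in LPDS (538 to 1224 beside 1243), SG21 against parental cells in FBS (1946 to 3174 beside 3088), and SGCTRL against parental cells in FBS (1061 to 2443 beside 2338) and LPDS (25 to 94 beside 108). The SG21 response differences also moved with 1 library left out, to 30 to 382 beside 107 (parental) and 0 to 241 beside 0 (SGCTRL). Each library's 60 to 349 reads limit CAND2.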

Other observations

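The rows most like the members over the 8 group means lay on chromosome 10 in 8 of 20 cases. Of 4730 tested rows with a log2 mean CPM of at least 4, 161 (3.4%) lay there. That set is not exactly the candidate set, and rows of unknown chromosome were kept in it. The chromosomes of the like rows ENSG00000288844 and ENSG00000286489 are not known. The chromosome 10 rows were 1 of 5 for ATG10, 2 of 5 for CAND2, 2 of 5 for KANK3 and 3 of 5 for SH3D19. ENSG00000229190, like ATG10, starts at position 17695709. ZDHHC16, MMS19, ENTPD7, CHUK-DT, PDZD7, MFSD13A and TRIM8 all start in 1 stretch, from 97446131 to 102642310. Rows near each other were counted as separate cases. None of the members is on this chromosome. The 431 tested rows of chromosome 10 had a median log2 fold change of -0.27 in SG21 against SGCTRL in FBS, -0.24 against SGCTRL in LPDS, -0.26 against parental cells in FBS and -0.31 against parental cells in LPDS. The share of them that passed as lower was 21.3%, 17.4%, 27.1% and 20.2%, against 6.72%, 5.39%, 13.1% and 5.41% of all rows. The chromosome did not stand alone: the 178 tested rows of chromosome 18 had medians of -0.30, -0.24, -0.34 and -0.33 in the same comparisons, and 13.5%, 10.7%, 25.3% and 9.55% of them passed as lower. Chromosome 4, where SH3D19 lies, had smaller shifts, with medians of -0.10, -0.10, -0.07 and -0.07 over 359 tested rows. Of these, 10.9%, 10.3%, 16.2% and 10% passed as lower, each above the share of all rows. On chromosome 9 the medians were -0.16, -0.22, -0.20 and -0.21. No cause was tested.

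The rows within 5 Mb of SH3D19 were too few to tell their share lower in SG21 from that of all rows. In FBS the 16 tested neighbours had a median log2 fold change of -0.11 against SGCTRL, with none lower, and of 0.09 against parental cells, with none lower. In LPDS the medians were -0.22 against SGCTRL, with none lower, and -0.09 against parental cells, with 1 lower. KANK3 lies among 247 tested rows, whose median was -0.17 in SG21 against SGCTRL in FBS, with 38 lower, and -0.14 against parental cells in FBS, with 67 lower. In LPDS the medians were -0.14 against SGCTRL, with 25 lower, and -0.20 against parental cells, with 24 lower. As shares of the 247 rows these were 15.4%, 27.1%, 10.1% and 9.72%, against 6.72%, 13.1%, 5.39% and 5.41% of all rows.

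The rows named RPS28 and RPL32 gave values beside their opposite rows. RPS28 held 170 to 287 CPM in the 8 libraries below the ambiguous-share cut and 234 to 399 CPM in the other 16, a ratio of medians of 0.796, and RPL32 held 26.7 to 38.0 CPM and 15.2 to 54.2 CPM, a ratio of 1.02. The ranges overlapped in both.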
